A study of Rattus norvegicus with 13 samples.

Results

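The messenger RNAs of spliceosome proteins and hnRNP splicing factors were followed in rat kidney glomeruli prepared in 3 ways. The members were the probe sets of the array whose single gene symbol starts with Snrp, Srsf, Sfrs, Sf3, Hnrnp, Hnrp, Prpf or Tra2. The rule found 72 probe sets of 51 genes, among 15866 probe sets and 10411 genes with a symbol of their own. Of these, 64 probe sets of 48 genes were bright enough to enter the tests, which ran on 11106 probe sets. By role the 72 members, tested or not, were 8 probe sets of 8 Snrp genes and 15 of 9 SR protein genes (Srsf and Tra2). The rest were 11 of 8 SF3 genes, 13 of 10 Prpf genes and 25 of 16 hnRNP genes. Another 8 probe sets carried such a symbol beside the symbol of a second gene and were not members.

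Spliceosomes remove introns from precursor mRNA. Small nuclear ribonucleoproteins form their core, with a ring of Sm proteins (from some of the Snrp genes) on most small nuclear RNAs. Other parts are the SF3 complexes that hold the branch point, and the Prpf proteins that assemble, activate and rearrange the particle. SR proteins mostly promote the use of nearby exons by binding exonic enhancers, hnRNPs coat the transcript and often oppose them, and messenger RNAs of both kinds of factor are themselves alternatively spliced.

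All samples were glomeruli, the capillary tufts that filter blood, of 18-week-old rats labelled as untreated and fed a regular diet, from the Lewis-Hsd strain according to the design text. In the sieved group (titled iron, n = 4) glomeruli loaded with iron oxide by perfusion of one kidney were collected by sieve and magnet, and their RNA was not amplified. In the groups titled LCM 800 (n = 5) and LCM 20 (n = 4) laser capture microdissection took glomeruli from sections of the opposite, unperfused kidney, and the RNA was amplified in 2 rounds. The labels describe about 800 captured glomerular cross-sections for both titles, so what the number 20 stands for is not given, and a description text shared by all samples names embryos, which does not match the kidney source. The extraction text of the sieved samples, unlike that of the LCM samples, speaks of normal and of anti-Thy1.1 rats without saying which rats gave these arrays. Anti-Thy1.1 antibody is used to injure the mesangium of rat glomeruli, so whether every sieved array is from an uninjured rat rests on the treatment label alone, and this bears on each change against the sieved group. Way of isolation and amplification differ together between the sieved and both LCM groups and cannot be told apart. Each sample is called a biological replicate but is not tied to a named rat. The p-values therefore set differences of group means against the spread between arrays within these groups, whatever the source of that spread.

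The deposited signals had been scaled to the same trimmed mean of 500.1 intensity units on every array, with array medians between 237 and 321. The LCM 800 arrays formed 2 blocks: Pearson's r over all tested probe sets was 0.893 to 0.93 among replicates 1 to 3, 0.937 between replicates 4 and 5, and 0.718 to 0.812 between the blocks. Over the 64 tested members the same values were 0.908 to 0.938, 0.945 and 0.72 to 0.808, and the LCM 20 arrays correlated at 0.872 to 0.945 with LCM 800 replicates 4 and 5 and at 0.642 to 0.806 with replicates 1 to 3. The log2 signal of the 3′ β-actin control over that of its 5′ control measures how far labelled RNA reaches towards the 5′ end. It was 0.53 to 0.58 in the sieved arrays and 1.5 to 2.51 in LCM 20. LCM 800 had 3.25, 4.29 and 4.67 in replicates 1 to 3 and 2.15 and 2.05 in replicates 4 and 5. The same measure for GAPDH was 0.36 to 0.67 in the sieved arrays, 0.83 to 2.24 in LCM 800 and -0.28 to 3.26 in LCM 20. For hexokinase the groups overlapped, with 1.35 to 2.75, -0.72 to 3.55 and 0.27 to 3.37. Sieved replicate 3 stood apart from its group, with a median r of 0.889 against 0.964 to 0.966 for the others. Its r with the LCM arrays was 0.547 to 0.761, against 0.47 to 0.624 for the other sieved arrays. Podocyte markers, which define the glomerular filter, were present in every group: the summed signal of 6 such genes was 17666 to 44184 in the sieved arrays, 38157 to 68817 in LCM 800 and 33649 to 51257 in LCM 20. Below, a change is a difference of group means of log2(signal + 65.3), printed ± its SE from the fit, and a gene rose or fell where limma's two-sided p adjusted over all 11106 probe sets was under 0.05.

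Against the sieved glomeruli, 11 of the 64 tested members were higher and 21 were lower in LCM 800. Their shares of 17.2% higher and 32.8% lower stood beside 31.8% higher and 20.1% lower among all probe sets tested. The median change of the members was -0.16, while that of all probe sets was 0.22. In LCM 20 against the same sieved arrays, 13 members (20.3%) were higher and 18 (28.1%) lower, beside 26.2% and 19.2% of all probe sets, with medians of -0.17 and 0.17. The lowest-to-highest ranges of the arrays did not overlap for 30 members (46.9%) in either comparison, near the background of 42.8% in LCM 800 and 43.8% in LCM 20. With 1 probe set for each of the 48 tested genes, 10 were higher (20.8%) and 14 lower (29.2%) in LCM 800. These shares stood beside 31.8% and 20.1% of all probe sets. In LCM 20, 11 genes were higher (22.9%) and 12 lower (25%), beside 26.2% and 19.2% of all probe sets. The shares lower were thus nearer to those of all probe sets than the 32.8% and 28.1% counted by probe set. Between the LCM groups 1 member was higher in LCM 20 than in LCM 800 and none was lower, against 0.072% higher and 0.081% lower of all probe sets. In limma 19 of the 64 members had an unadjusted p under 0.05, beside 1952 of all 11106 probe sets. In these bulk samples fewer cells of a type and less RNA per cell cannot be told apart.

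Without LCM 800 replicates 1 to 3 the members counted 12 higher (18.75%, beside 27.4% of all probe sets) and 20 lower (31.25%, beside 19.1%) in LCM 800. Leaving out replicates 4 and 5 instead gave 15 higher (23.4%, beside 33.0%) and 26 lower (40.6%, beside 21.95%). Without LCM 20 replicate 2 the members higher in LCM 20 numbered 7 rather than 13 (10.9%, beside 23.2% of all probe sets). Setting all array medians equal moved the median of all probe sets in LCM 800 from 0.22 to 0.12 and gave 10 members higher (15.6%, beside 27.6%) and 24 lower (37.5%, beside 22.3%).

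**Figure D1:**
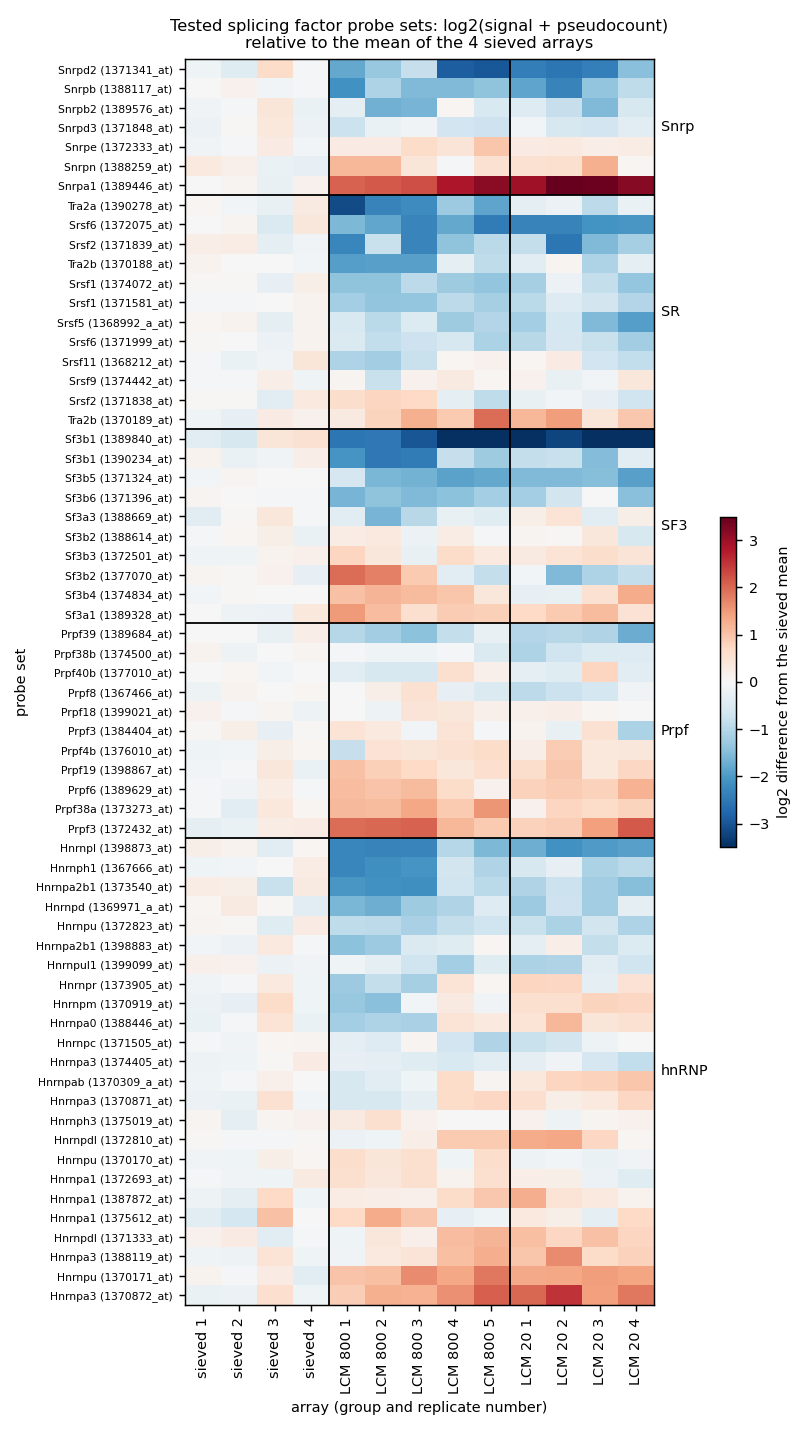
Log2(signal + pseudocount) of the 64 tested members on each of the 13 arrays, relative to the mean of the 4 sieved arrays; rows are probe sets by role group, columns are arrays, and colours stop at 3.5 in either direction. Snrpa1 is above the sieved mean on all 9 LCM arrays and Sf3b1 (1389840_at) below it on all 9, and several hnRNP and SR rows are lower in LCM 800 replicates 1 to 3 than in replicates 4 and 5.

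The Snrp genes, which encode Sm ring proteins and proteins bound to single small nuclear RNAs, moved in both directions. Of 7 tested, 2 rose (28.6%, beside 31.8% of all probe sets) and 2 fell (28.6%, beside 20.1%) in LCM 800. In LCM 20, 1 rose (14.3%, beside 26.2%) and 2 fell (28.6%, beside 19.2%). Their medians were -0.50 and -0.42. Without LCM 800 replicates 1 to 3 the LCM 800 counts were 2 higher and 3 lower, beside 27.4% and 19.1% of all probe sets. They were also 2 higher and 3 lower without replicates 4 and 5, beside 33.0% and 21.95%. With equal array medians they were 1 higher and 4 lower, beside 27.6% and 22.3%. Snrpa1 (1389446_at) encodes a protein of the branch-point-binding U2 particle and had the highest change of all members. Its signals were 181, 196, 138 and 207 in the sieved arrays, 947, 1006, 1105, 1655 and 2124 in LCM 800 and 1845, 3306, 2546 and 2171 in LCM 20. Every LCM array lay above every sieved array, and the change was 2.48 ± 0.25 (SE, adjusted p = 2.27e-06) in LCM 800 and 3.34 ± 0.27 (SE, adjusted p = 4.47e-07) in LCM 20. Snrpb (1388117_at), an Sm ring protein, went the other way. Signals of 1371, 1511, 1254 and 1295 in the sieved arrays stood against 261, 605, 424, 420.1 and 467 in LCM 800 and 333, 218, 476 and 706 in LCM 20. Its ranges did not overlap in either comparison, with changes of -1.54 ± 0.27 (SE, adjusted p = 0.000224) and -1.61 ± 0.28 (SE, adjusted p = 0.000309). Snrpd2 (1371341_at), another Sm ring protein, read 519, 416, 936 and 559 in the sieved group, 121, 193, 307, 23.0 and 18.1 in LCM 800 and 55.0, 45.9, 57.3 and 169.6 in LCM 20. It fell by 1.95 ± 0.41 (SE, adjusted p = 0.00096) and by 2.21 ± 0.43 (SE, adjusted p = 0.00067) on the log2 scale. Several of its LCM signals are below the pseudocount, where this scale understates a change: with 4 times the pseudocount the changes were -1.16 and -1.32.

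Snrpe (1372333_at), also of the Sm ring, rose by 0.53 ± 0.20 (SE, adjusted p = 0.0331) in LCM 800, where its signals were 1783, 1777, 2272, 2013 and 2912 against 1313, 1393, 1762 and 1337 in the sieved arrays. That call ended in 8 of 26 alternatives, among them leaving out LCM 800 replicate 3 or 5 or sieved replicate 1, 2 or 4, where the change was 0.41 to 0.52. In LCM 20 its change was 0.28 (adjusted p = 0.29). Snrpn (1388259_at), the Sm protein best known from neurons, had changes of 0.64 (adjusted p = 0.0746) in LCM 800 and 0.60 (adjusted p = 0.122) in LCM 20. In LCM 800 it passed without replicate 4, at 0.82, and without replicates 4 and 5, at 0.92, and had 0.23 without replicates 1 to 3. The other tested members, Snrpb2 and Snrpd3, did not pass the test in either comparison.

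Of 12 tested probe sets of SR protein genes, 8 fell (66.7%, beside 20.1% of all probe sets) and 1 rose (8.33%, beside 31.8%) in LCM 800. In LCM 20, 6 fell (50%, beside 19.2%), 1 rose (8.33%, beside 26.2%) and 5 did not pass the test. Their median changes were -1.02 and -0.59. Without LCM 800 replicates 1 to 3, 7 were lower and 1 higher in LCM 800, beside 19.1% and 27.4% of all probe sets. Without replicates 4 and 5, 8 were lower and 2 higher, beside 21.95% and 33.0%. With all arrays, the falls in LCM 800 included both probe sets of Srsf1 and of Srsf6, and Tra2b was counted in both directions. Srsf6 (1372075_at) binds exonic enhancers, and its signals were 1950, 2050, 1323 and 2552 in the sieved arrays, 599, 492, 337, 511 and 299 in LCM 800 and 329.5, 324, 404 and 414 in LCM 20. The lowest sieved array was above the highest LCM array, and the changes were -1.99 ± 0.23 (SE, adjusted p = 6.45e-06) and -2.20 ± 0.24 (SE, adjusted p = 5.93e-06). Both probe sets of Srsf1, the founding member of the family, fell as well. For 1371581_at the sieved arrays read 1074, 1086, 1156 and 1232, LCM 800 read 462, 395, 407, 577 and 471 and LCM 20 read 558, 817, 710 and 525, again with no overlap. Its change was -1.20 ± 0.18 (SE, adjusted p = 7.75e-05) in LCM 800 and -0.76 ± 0.19 (SE, adjusted p = 0.00487) in LCM 20, and that of 1374072_at was -1.27 (adjusted p = 0.00027) and -0.89 (adjusted p = 0.00665). Srsf5 (1368992_a_at), whose sieved signals were 3572, 3722, 2739 and 3675, fell by 0.84 (adjusted p = 0.0134) in LCM 800 and by 1.32 (adjusted p = 0.00125) in LCM 20. Without LCM 800 replicates 4 and 5 its change in LCM 800 was -0.65 (adjusted p = 0.0571).

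Srsf2 and the Tra2 genes did not behave alike across their probe sets. One probe set of Srsf2 (1371839_at), an SR protein that marks nuclear speckles, changed by -1.55 ± 0.36 (SE, adjusted p = 0.00246) and -1.52 ± 0.39 (SE, adjusted p = 0.00487), and the other (1371838_at) by 0.17 (adjusted p = 0.678) and -0.34 (adjusted p = 0.437). On 1371838_at the LCM 800 signals were 6792, 7477, 7244, 3438 and 2369, so that replicates 1 to 3 were above the sieved signals and replicates 4 and 5 within or below their range of 4521, 4504, 3338 and 5569. Without replicates 4 and 5 its change was 0.69 (adjusted p = 0.0178). Tra2a and Tra2b are SR-like activators of exons rich in purines. Tra2b (1370188_at) read 1388, 1259, 1260 and 1171 in the sieved group, 288, 293, 292, 1001 and 648 in LCM 800 and 968, 1367, 569.6 and 988 in LCM 20. It fell by 1.39 (adjusted p = 0.00227) in LCM 800, where replicates 1 to 3 were lowest, and without these replicates its change was -0.61 (adjusted p = 0.107). In LCM 20 it changed by -0.42 (adjusted p = 0.33). The other Tra2b probe set (1370189_at) read 1571, 1438, 2158 and 1945 in the sieved group, 2213, 3042, 4219, 3354 and 6975 in LCM 800 and 4037, 4981, 2372 and 3422 in LCM 20. It rose by 1.04 ± 0.30 (SE, adjusted p = 0.00951) and 1.0 ± 0.32 (SE, adjusted p = 0.0183). The LCM 20 call ended without LCM 20 replicate 2, at 0.84, or without sieved replicate 2, at 0.91. Srsf9 and Srsf11 did not pass the test in either comparison.

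Of 10 tested SF3 probe sets, 5 fell (50%, beside 20.1% of all probe sets) and 2 rose (20%, beside 31.8%) in LCM 800. In LCM 20, 3 fell (30%, beside 19.2%) and 1 rose (10%, beside 26.2%). Without LCM 800 replicates 1 to 3 the LCM 800 counts were 4 lower and 1 higher, beside 19.1% and 27.4% of all probe sets. Without replicates 4 and 5 they were 5 lower and 3 higher, beside 21.95% and 33.0%. Sf3b1, the scaffold of SF3B that clamps the branch point helix, had the lowest change of all members. Its probe set 1389840_at read 1634, 1422, 2884 and 3139 in the sieved arrays, 319, 326, 213, 108 and 15.6 in LCM 800 and 109.7, 171, 21.4 and 90.7 in LCM 20. The change was -3.29 ± 0.42 (SE, adjusted p = 1.77e-05) and -3.85 ± 0.45 (SE, adjusted p = 1.01e-05), and no LCM array came near the sieved range. A second Sf3b1 probe set (1390234_at) had sieved signals of 2233, 1737, 1885 and 2440, LCM 800 signals of 438, 312, 324, 1150 and 829.8 and LCM 20 signals of 1129, 1160, 673 and 1552. It was also below the sieved range on every LCM array, but by less: -1.81 ± 0.33 (SE, adjusted p = 0.000368) in LCM 800, -1.02 (adjusted p = 0.0137) without replicates 1 to 3, and -0.88 ± 0.35 (SE, adjusted p = 0.0501) in LCM 20. The LCM 20 value lies at the threshold and was under it in 14 of 26 alternatives. Among them was the fit of only the sieved and LCM 20 groups (adjusted p = 0.012).

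Smaller SF3B subunits fell too. Sf3b5 (1371324_at) read 725, 837, 782 and 761 in the sieved arrays, 495, 212, 203, 162 and 179 in LCM 800 and 222, 221, 232 and 160.5 in LCM 20, with changes of -1.5 ± 0.23 (SE, adjusted p = 9.21e-05) and -1.62 ± 0.25 (SE, adjusted p = 0.000101). Sf3b6 (1371396_at), which contacts the branch point adenosine, had signals of 1046, 972, 930.3 and 929.5, 268, 327, 287, 319 and 387 and 387, 594, 962 and 310.3 in the same order of groups. It changed by -1.44 ± 0.24 (SE, adjusted p = 0.00019) and -0.83 ± 0.26 (SE, adjusted p = 0.0163), and the LCM 20 call ended without LCM 20 replicate 1, at -0.71, or replicate 4, at -0.62. Members of both SF3 complexes were among those that rose. Sf3a1 (1389328_at), a subunit of SF3A, rose by 0.97 ± 0.21 (SE, adjusted p = 0.00151) in LCM 800 and by 0.81 ± 0.23 (SE, adjusted p = 0.00888) in LCM 20. Sf3b4 (1374834_at), an RNA-binding subunit of SF3B, rose by 0.94 (adjusted p = 0.0134) in LCM 800, with 0.68 (adjusted p = 0.151) when replicates 1 to 3 were left out. Its change in LCM 20 was 0.32 (adjusted p = 0.414). One Sf3b2 probe set (1377070_at) did not pass the test but split the LCM 800 group, with 1736, 1526, 819, 292 and 198 in replicates 1 to 5 against 429, 414, 451 and 318 in the sieved arrays.

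**Figure D2:**
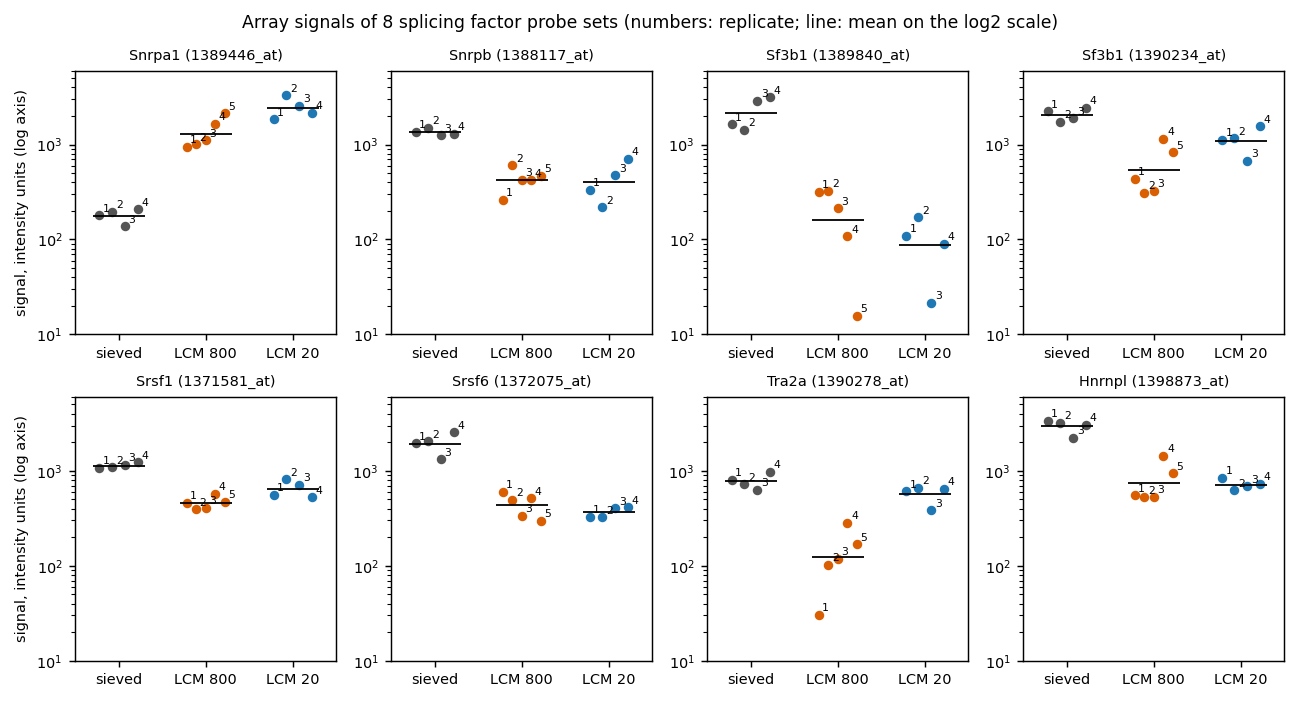
Signals in intensity units (log axis) of 8 probe sets on each array, with replicate numbers beside the points and a line at the mean of each group on the log2 scale. Snrpa1 is higher in both LCM groups than in the sieved group, Snrpb, both Sf3b1 probe sets, Srsf1, Srsf6 and Hnrnpl are lower, and Tra2a lies between 30.4 and 284 on the LCM 800 arrays and at 383 or above on all others.

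The Prpf genes had a median of 0.23 in LCM 800, the highest among the role groups there, and 0.13 in LCM 20, close to the medians of 0.22 and 0.17 over all probe sets. Of 11 tested, 4 rose (36.4%, beside 31.8% of all probe sets) and 1 fell (9.09%, beside 20.1%) in LCM 800. In LCM 20, 4 rose (36.4%, beside 26.2%) and 2 fell (18.2%, beside 19.2%). When LCM 800 replicates 1 to 3 were left out its counts were 2 higher and 0 lower, beside 27.4% and 19.1% of all probe sets. Prpf3 (1372432_at) belongs to the U4/U6 particle and read 372, 393, 578 and 599 in the sieved arrays, 2030, 2111, 2178, 1148 and 962 in LCM 800 and 874, 926, 1403 and 2338 in LCM 20. Its change was 1.62 ± 0.31 (SE, adjusted p = 0.000554) in LCM 800, 1.05 (adjusted p = 0.026) without replicates 1 to 3, and 1.32 ± 0.33 (SE, adjusted p = 0.00454) in LCM 20. The other tested Prpf3 probe set (1384404_at) did not pass, with 0.23 (adjusted p = 0.499) in LCM 800 and -0.18 (adjusted p = 0.642) in LCM 20. Prpf38a (1373273_at), a factor of the precatalytic spliceosome, read 201, 142, 285 and 221, 533, 521, 634, 449 and 736 and 237, 394, 358 and 400.4 in the sieved, LCM 800 and LCM 20 arrays. It rose by 1.21 ± 0.21 (SE, adjusted p = 0.000203) in LCM 800, and its LCM 20 call at 0.58 (adjusted p = 0.0416) ended in 11 alternatives, with values down to 0.36. Leaving out LCM 20 replicate 2, 3 or 4 or sieved replicate 1, 2 or 4 was enough to end it.

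Prpf6 (1389629_at), which bridges the particles of the tri-snRNP, rose by 0.80 (adjusted p = 0.0076) and 0.92 (adjusted p = 0.0051), and Prpf19 (1398867_at), a ubiquitin ligase of the activated spliceosome, by 0.71 (adjusted p = 0.0082) and 0.66 (adjusted p = 0.0192). Without LCM 800 replicates 1 to 3 these LCM 800 changes were 0.40 (adjusted p = 0.184) and 0.50 (adjusted p = 0.112), and the LCM 20 call of Prpf19 ended without LCM 20 replicate 2 or sieved replicate 1 or 4, at 0.57, 0.63 and 0.59. Prpf39 (1389684_at), linked to the U1 particle, was the exception that fell in both: -0.95 ± 0.24 (SE, adjusted p = 0.0039) in LCM 800, -0.54 (adjusted p = 0.111) without replicates 1 to 3, and -1.20 ± 0.25 (SE, adjusted p = 0.00128) in LCM 20. Prpf38b (1374500_at) fell in LCM 20, by 0.68 (adjusted p = 0.0116), and had -0.18 (adjusted p = 0.43) in LCM 800. Prpf8 (1367466_at), the large scaffold at the catalytic centre, read 1307, 1612, 1467 and 1542 in the sieved arrays, 1495, 1711, 2178, 1198 and 1022 in LCM 800 and 752, 851, 934 and 1364 in LCM 20. Its ranges overlapped in both comparisons, with -0.01 (adjusted p = 0.983) and -0.60 (adjusted p = 0.0595). The LCM 20 value passed in 7 of 26 alternatives, among them leaving out LCM 20 replicate 4, at -0.77, or LCM 800 replicate 3 or 5, at -0.60. Another was the fit of only the sieved and LCM 20 groups (adjusted p = 0.0347). The kinase gene Prpf4b (1376010_at) had 0.26 (adjusted p = 0.432) and 0.47 (adjusted p = 0.181). Without LCM 800 replicate 1, its lowest array in that group, the LCM 800 change was 0.52 (adjusted p = 0.0338).

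The hnRNP genes were the largest role group. Of 24 tested probe sets, 2 rose (8.33%, beside 31.8% of all probe sets) and 5 fell (20.8%, beside 20.1%) in LCM 800. In LCM 20, 6 rose (25%, beside 26.2%) and 5 fell (20.8%, beside 19.2%). Their median in LCM 800 was -0.22, with 0.16 without replicates 1 to 3 and -0.35 without replicates 4 and 5. Its sign thus rests on those arrays. The counts were 6 higher and 6 lower without replicates 1 to 3, beside 27.4% and 19.1% of all probe sets. Without replicates 4 and 5 they were 4 higher and 9 lower, beside 33.0% and 21.95%. In LCM 20 the median was 0.14. Hnrnpl (1398873_at), which binds CA repeats, read 3354, 3215, 2216 and 3050 in the sieved arrays, 553, 525, 534, 1435 and 939 in LCM 800 and 840.1, 621, 684 and 735 in LCM 20. All LCM arrays were below the sieved range, with changes of -1.90 ± 0.27 (SE, adjusted p = 4.2e-05) and -1.93 ± 0.29 (SE, adjusted p = 7.79e-05). Hnrnph1 (1367666_at), which binds runs of G, read 2387, 2500, 2659 and 3246, 498, 550.1, 586, 1709 and 1270 and 1793, 2165, 1209 and 1368 in the sieved, LCM 800 and LCM 20 arrays. It fell by 1.64 (adjusted p = 0.000629) in LCM 800, with -0.83 (adjusted p = 0.023) when replicates 1 to 3 were left out. In LCM 20, where its range lay below the sieved range, it had -0.73 (adjusted p = 0.0907). That value passed without LCM 800 replicate 4. It also passed with only the sieved and LCM 20 groups in the fit (adjusted p = 0.0191), where LCM 800 has no part in the spread.

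The Hnrnpa2b1 gene, whose protein sorts and splices many transcripts, fell on 1 of its 2 probe sets. On 1373540_at the sieved arrays had 1905, 1820, 889.9 and 1953, the LCM 800 arrays 335, 314, 305, 949 and 778 and the LCM 20 arrays 728, 898, 640.5 and 519. The changes were -1.59 ± 0.33 (SE, adjusted p = 0.00101), or -0.82 (adjusted p = 0.0478) without replicates 1 to 3, and -1.13 ± 0.35 (SE, adjusted p = 0.0156). Its other probe set (1398883_at) had -0.71 (adjusted p = 0.0571) in LCM 800, which passed without LCM 800 replicate 5 or LCM 20 replicate 2, was -1.07 without LCM 800 replicates 4 and 5 and -0.18 without replicates 1 to 3, and -0.35 (adjusted p = 0.378) in LCM 20. Hnrnpd (1369971_a_at), a factor of AU-rich mRNA decay, changed by -1.21 (adjusted p = 0.00192) in LCM 800, -0.75 (adjusted p = 0.0629) without replicates 1 to 3, and -0.89 (adjusted p = 0.0206) in LCM 20. The LCM 20 call ended without LCM 20 replicate 1 or 3 or sieved replicate 2, with values of -0.76 to -0.79. The 3 probe sets of Hnrnpa1, a frequent antagonist of SR proteins, and that of Hnrnpc, which binds U tracts, did not pass the test: Hnrnpa1 had 0.44 to 0.50 in LCM 800 and -0.05 to 0.56 in LCM 20, and Hnrnpc had -0.49 (adjusted p = 0.0998) and -0.40 (adjusted p = 0.211). The Hnrnpc change in LCM 800 passed without LCM 800 replicate 3, at -0.63, and without replicates 1 to 3, at -0.86. The Hnrnpa1 probe sets 1372693_at and 1387872_at passed in LCM 800 without 1 array, the first at 0.52 without LCM 800 replicate 4 and the second at 0.69 without sieved replicate 3, which also gave 0.79 and a call in LCM 20. The remaining one (1375612_at) changed sign between the LCM 800 blocks, with 0.98 (adjusted p = 0.026) without replicates 4 and 5 and -0.23 (adjusted p = 0.654) without replicates 1 to 3.

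Hnrnpa3 and Hnrnpu had the highest changes among the hnRNPs. Hnrnpa3, a relative of Hnrnpa1, read 804, 818, 1478 and 854 on 1370872_at in the sieved group, 1792, 2374, 2296, 3020 and 4286 in LCM 800 and 4045, 5782, 2712 and 3629 in LCM 20. Both LCM ranges were above the sieved range, with 1.40 ± 0.28 (SE, adjusted p = 0.000828) and 1.96 ± 0.30 (SE, adjusted p = 0.000109). Its probe set 1388119_at had 0.60 (adjusted p = 0.103) and 1.02 (adjusted p = 0.0151), the latter lost without LCM 20 replicate 2 at 0.81 and the former past the test without LCM 800 replicate 1 at 0.78 or without replicates 1 to 3 at 1.16. Its 2 other probe sets did not pass the test.

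**Figure D3:**
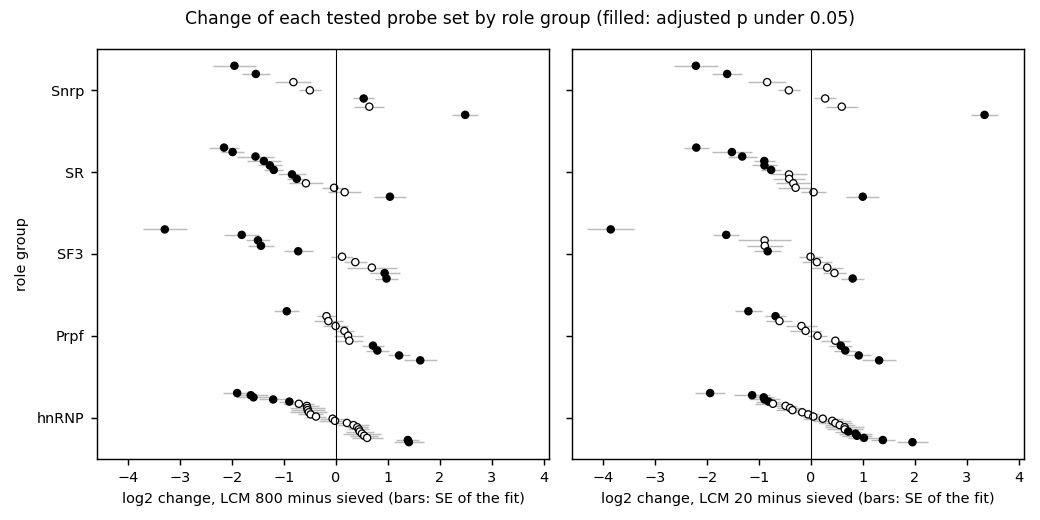
Log2 change of each tested member against the sieved group by role group, with LCM 800 on the left and LCM 20 on the right; bars are the SE of the fit and filled points have an adjusted p under 0.05. Most filled SR points lie below 0 (8 of 9 in LCM 800), most filled Prpf points above it (4 of 5).

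Probe sets of 1 gene read different stretches of its mRNA, and 12 genes had 2 or more that were tested, 28 probe sets in all. The median spread between the highest and lowest change of such a gene was 1.31 in LCM 800 and 1.25 in LCM 20. The signs differed for 4 of the 12 genes in LCM 800 and 5 in LCM 20. Hnrnpu encodes a nuclear scaffold protein that binds RNA and chromatin, and its probe sets passed the test in opposite directions. On 1370171_at the signals were 1093, 963, 1221 and 741 in the sieved arrays, 2038, 2141, 3260, 2612 and 3725 in LCM 800 and 2601, 2613, 2858 and 2695 in LCM 20. On 1372823_at they were 861, 819, 572 and 992, 402, 388, 329, 415 and 465 and 436, 332, 485 and 345. The first was higher on every LCM array than on any sieved array and the second lower on every one. The changes were 1.38 ± 0.22 (SE, adjusted p = 0.000119) and 1.39 ± 0.23 (SE, adjusted p = 0.000232) for the first, and -0.90 ± 0.19 (SE, adjusted p = 0.00121) and -0.90 ± 0.20 (SE, adjusted p = 0.00199) for the second. The remaining Hnrnpu probe set (1370170_at) had 0.41 (adjusted p = 0.103) and -0.16 (adjusted p = 0.556), and passed in LCM 800 without LCM 800 replicate 4, at 0.55. Tra2b was the only other gene with calls in both directions, and only in LCM 800. The probe sets of Srsf1 and Srsf6 passed the test in the same direction in both comparisons. Where each probe set lies on its transcript was not analysed here, and the part that the 3′ to 5′ difference of the β-actin controls has in these splits was not tested.

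**Figure D4:**
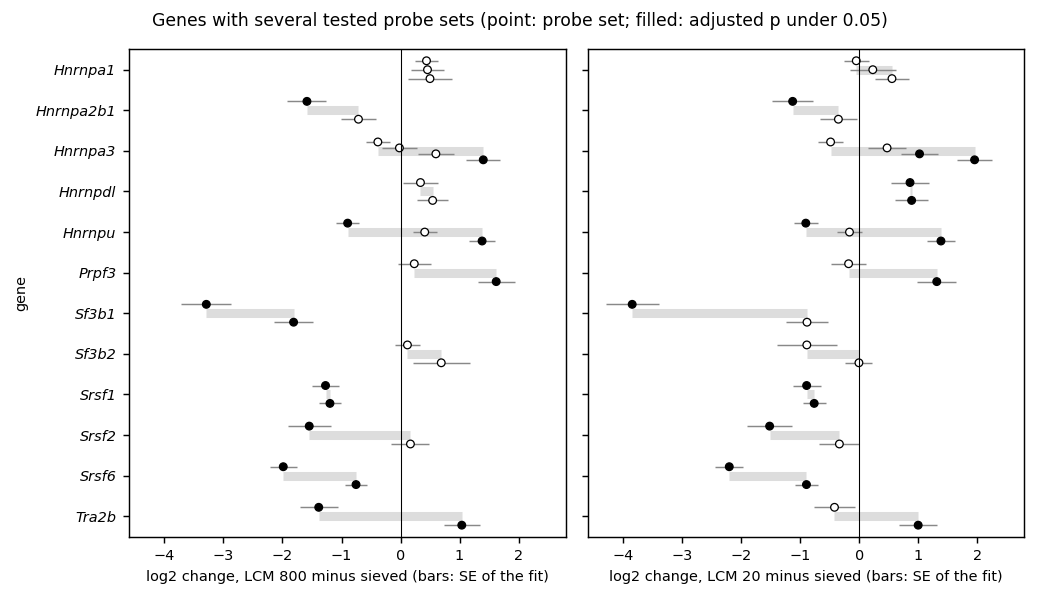
Log2 change against the sieved group of each tested probe set for the 12 genes with 2 or more, LCM 800 on the left and LCM 20 on the right; bars are the SE of the fit, grey spans join the lowest and highest change, and filled points have an adjusted p under 0.05. Hnrnpu has filled points on both sides of 0 in both panels, from -0.90 to 1.38 in LCM 800, and Tra2b in LCM 800.

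LCM 20 and LCM 800 were set against each other in the same fit, and Tra2a (1390278_at) was the member that differed. The signals were 808, 724, 631 and 971 in the sieved arrays, 30.4, 102, 118, 284 and 169 in LCM 800 and 611, 667, 383 and 643 in LCM 20. Every LCM 800 array was below every array of the other groups. Tra2a fell in LCM 800 against the sieved group, by 2.15 ± 0.30 (SE, adjusted p = 3.04e-05), had -0.42 ± 0.31 (SE, adjusted p = 0.289) in LCM 20, and was higher in LCM 20 than in LCM 800 by 1.74 ± 0.30 (SE, adjusted p = 0.0289). This last call ended in 13 of 25 alternatives, with adjusted p-values up to 0.153. Without LCM 800 replicates 1 to 3 the difference was 1.14 (adjusted p = 0.12), and leaving out LCM 800 replicate 1, 2 or 3, LCM 20 replicate 1, 2 or 4, or sieved replicate 1 or 2 also ended it, with differences between 1.49 and 1.74. Ranges of the LCM groups did not overlap for 3 members (4.69%, beside 3.84% of all probe sets). These were Tra2a, Hnrnpm (1370919_at), which was higher in LCM 20, with 545, 548, 656 and 627 against 100.2, 85.8, 326, 450.4 and 319, and Prpf38a, which was lower. Neither passed the test, with differences of 1.20 (adjusted p = 0.106) for Hnrnpm and -0.64 (adjusted p = 0.156) for Prpf38a.

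How the LCM groups compared depended on which LCM 800 arrays entered. With replicates 4 and 5 left out, 16 of 64 members (25%) were higher in LCM 20 and 5 (7.81%) lower, beside 11.4% and 11.9% of all probe sets. Of the 16, 11 were hnRNP probe sets, a role group that holds 24 of the 64 members. With replicates 1 to 3 left out instead, no member passed in either direction, beside 0.207% higher and 0% lower of all probe sets. Leaving out replicate 4 alone was enough for Hnrnph1, Hnrnpu (1370170_at), Sf3b1 (1390234_at) and Tra2b (1370188_at) to pass, at 1.16, -0.72, 1.18 and 1.23, and leaving out replicate 5 for Snrpa1, at 1.03. Hnrnpa0 (1388446_at), an AU-binding hnRNP, shows the split, with 516, 564, 538, 1804 and 1635 in LCM 800, 1080, 1244, 1807 and 1071 in the sieved arrays and 1813, 2929, 1719 and 1873 in LCM 20. Replicates 1 to 3 were below all other arrays and replicates 4 and 5 within the range of the others. The median log2 level of the tested members was 9.25, 9.30 and 9.40 on LCM 800 replicates 1 to 3, 9.95 and 9.72 on replicates 4 and 5, 9.53 to 9.79 in LCM 20 and 9.79 to 9.96 in the sieved group. The median SD of a member between arrays of a group was 0.466 in LCM 800, 0.349 in LCM 20 and 0.225 in the sieved group, beside 0.387, 0.364 and 0.236 for all probe sets. The labels do not mark these LCM 800 replicates as batches. Of the 3′ to 5′ controls, β-actin separates replicates 1 to 3 from 4 and 5, as given above, while the others do not: GAPDH had 1.37, 1.24, 1.19, 2.24 and 0.83 in replicates 1 to 5 and hexokinase 0.98, -0.72, 1.70, 3.55 and 0.32. Marker sums also separated the blocks without overlap, with podocyte sums of 56132 to 68817 in replicates 1 to 3 and 38157 to 43842 in replicates 4 and 5. The mesangial sums were 2081 to 2813 and 1324 to 1364, and the proximal tubule sums 35819 to 46552 and 22867 to 27508. The part of these differences in the values of the splicing genes was not tested.

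Markers of kidney cell types moved along with the comparisons against the sieved group. Of 9 proximal tubule genes, 8 were lower and 1 higher in LCM 800, and 8 were lower in LCM 20. Their summed signal was 47482 to 88257 in the sieved arrays, 22867 to 46552 in LCM 800 and 19876 to 38030 in LCM 20. Of 7 genes of the loop, distal tubule and collecting duct, 4 were lower and 1 higher in LCM 800 and 5 lower in LCM 20, with sums of 18736 to 39503, 12533 to 19887 and 4504 to 11634 in the same order of groups. No marker of the tubule lists had a group mean under the pseudocount in any group. Of 5 endothelial genes, 2 were higher in LCM 800 and 3 in LCM 20 and none was lower, with sums of 3614 to 13875, 9114 to 13403 and 15705 to 22329. Of 4 parietal epithelial genes, 2 were lower and 1 higher in LCM 800 and 3 lower in LCM 20, with sums of 1143 to 2555, 928 to 1555 and 696 to 1102. Of 5 leukocyte genes, 3 were higher and 1 lower in LCM 800 and 2 higher and 1 lower in LCM 20, while their sums went from 5208 to 9416 in the sieved arrays to 2427 to 5080 and 1666 to 4824, and Cd3d was under the pseudocount in the sieved group. Of 5 mesangial genes, 2 were higher in LCM 800 and none passed in LCM 20, with sums of 648 to 2689, 1324 to 2813 and 772 to 1810. Of the 6 podocyte genes, 3 were higher and 2 lower in LCM 800, and 3 higher and 1 lower in LCM 20. The part of these markers in the changes of the splicing genes was not tested.

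The rest of the splicing machinery, from a list of 132 genes that the name rule does not reach, had 97 tested genes. In LCM 800, 23 rose (23.7%, beside 31.8% of all probe sets) and 24 fell (24.7%, beside 20.1%), with a median of 0.05. In LCM 20, 25 rose (25.8%, beside 26.2%) and 26 fell (26.8%, beside 19.2%), with a median of 0.22. None differed between the LCM groups in limma, where 16 of the 97 had an unadjusted p under 0.05, beside 1952 of all 11106 probe sets. The counts of genes that rose in LCM 20 were 14 without sieved replicate 1 and 16 without sieved replicate 2. Ppie, a cyclophilin of the activated spliceosome, rose by 2.65 ± 0.21 (SE, adjusted p = 2.12e-07) in LCM 800 and 2.89 ± 0.22 (SE, adjusted p = 2.86e-07) in LCM 20, and Usp39, which helps to recruit the tri-snRNP, by 1.98 ± 0.24 (SE, adjusted p = 8.36e-06) and 1.55 ± 0.25 (SE, adjusted p = 0.000154). Sfpq, an RNA-binding protein of paraspeckles, rose by 1.43 ± 0.34 (SE, adjusted p = 0.00287) and 2.12 ± 0.36 (SE, adjusted p = 0.000253), and its LCM 800 change was 2.25 without replicates 1 to 3 and 0.87 without replicates 4 and 5. Rbm25, a regulator of splice site choice, changed by -2.07 ± 0.30 (SE, adjusted p = 5.35e-05) and -2.35 ± 0.32 (SE, adjusted p = 3.88e-05). Clk1, a kinase of SR proteins, changed by -2.01 ± 0.34 (SE, adjusted p = 0.000167), or -1.33 without LCM 800 replicates 1 to 3, and by -1.04 ± 0.35 (SE, adjusted p = 0.0253), a call lost without LCM 20 replicate 3 at -0.78 or sieved replicate 4 at -0.91. Srrm2, a scaffold of nuclear speckles, had -1.20 ± 0.64 (SE, adjusted p = 0.123) in LCM 800, with -3.03 when replicates 1 to 3 were left out and 0.01 (adjusted p = 0.984) when replicates 4 and 5 were, and -3.06 ± 0.67 (SE, adjusted p = 0.00174) in LCM 20. The LCM 800 change of Srrm2 also passed without replicate 1 or without replicate 2, at -1.56 and -1.57. Snrnp70, the U1 particle protein, rose by 0.90 ± 0.28 (SE, adjusted p = 0.0131) in LCM 800 and had 0.55 ± 0.29 (SE, adjusted p = 0.134) in LCM 20.

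Promoters were compared over the 250 bases before the start site, from RefSeq on the GRCr8 build, for 49 of the 51 member genes. The letters CCGGAA, the core bound by ETS factors, occurred on either strand in 22 of the 49 (44.9%), beside 13.4% of all 27457 promoters and 15.9% of the 18999 of protein-coding genes. The GC box letters GGGCGG occurred in 28 (57.1%, beside 32.4% and 40.3%), CCAAT in 25 (51.0%, beside 34.3% and 35.5%) and TATAAA in 4 (8.16%, beside 13.1% and 12.3%). Each motif was searched on its own, whether or not it overlapped another, and the median number of CpG pairs was 20 in members, 6 in all promoters and 9 in those of protein-coding genes. The promoters of 4 genes are shown because their mRNA signals went in different directions: Snrpa1 (highest change), Snrpb and Srsf6 (lower in both LCM groups) and Tra2b (probe sets in both directions). Capitals mark matches to any of these motifs, and a match is a description of the letters, not a bound site. Snrpa1 lies at chr1:129051800-129052049 (plus strand) and has no match, Snrpb at chr3:137832480-137832729 (minus strand) with 2 ETS cores, 1 GC box and 2 CCAAT boxes, Srsf6 at chr3:172008822-172009071 (plus strand) with 2 GC boxes, and Tra2b at chr11:92293192-92293441 (plus strand) with 1 GC box.
Snrpa1: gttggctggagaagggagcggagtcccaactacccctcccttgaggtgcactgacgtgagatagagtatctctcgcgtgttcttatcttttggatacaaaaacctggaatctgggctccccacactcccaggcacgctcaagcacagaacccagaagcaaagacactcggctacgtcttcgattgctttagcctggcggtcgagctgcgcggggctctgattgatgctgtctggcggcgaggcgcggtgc
Snrpb: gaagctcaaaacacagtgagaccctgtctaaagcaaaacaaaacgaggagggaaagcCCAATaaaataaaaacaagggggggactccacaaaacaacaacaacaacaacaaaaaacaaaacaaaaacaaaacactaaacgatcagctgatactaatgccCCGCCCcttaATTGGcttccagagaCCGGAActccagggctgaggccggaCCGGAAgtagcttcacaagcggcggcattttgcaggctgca
Srsf6: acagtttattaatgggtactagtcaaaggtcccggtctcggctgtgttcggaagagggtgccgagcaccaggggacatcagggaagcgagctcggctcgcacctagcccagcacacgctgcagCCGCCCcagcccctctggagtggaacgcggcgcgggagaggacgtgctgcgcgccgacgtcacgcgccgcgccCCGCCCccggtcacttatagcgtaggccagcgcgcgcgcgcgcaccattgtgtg
Tra2b: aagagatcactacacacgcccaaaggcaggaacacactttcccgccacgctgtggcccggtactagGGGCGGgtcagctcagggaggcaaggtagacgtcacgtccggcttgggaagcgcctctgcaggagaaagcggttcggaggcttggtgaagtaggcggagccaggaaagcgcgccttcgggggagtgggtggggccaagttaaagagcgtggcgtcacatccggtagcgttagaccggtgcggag

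The 8 members left out of the tests had a low mean over all arrays. Hnrnpf (1370844_at), a relative of Hnrnph1 that binds runs of G, is among them because its LCM signals were low. It read 557, 497, 644 and 522 in the sieved arrays, 29.3, 20.8, 20.3, 63.6 and 7.96 in LCM 800 and 20.1, 23.1, 55.8 and 102 in LCM 20. With no filter on low values its changes were -2.75 ± 0.23 (SE, adjusted p = 5.55e-07) and -2.48 ± 0.24 (SE, adjusted p = 2.61e-06), understated because most LCM signals lie below the pseudocount. The other 7 probe sets, of Snrpa, Sf3a1, Prpf18, Prpf3 and Srsf10 (3 probe sets), did not pass the test without the filter.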

How the data were processed

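RNA of 13 samples was hybridised to 1-colour Affymetrix Rat 230A arrays. The authors deposited linear signal intensity values per probe set, and per the submitters' processing notes MAS5 made them. Scaling to a common trimmed mean was read from the values, and no further normalization was applied. The 57 control probe sets and, of the rest, the 30% with the lowest mean log2 value over the 13 arrays were left out. Values were taken as log2(signal + 65.3), the pseudocount being the 20th percentile of all signals. The 3 groups entered 1 fit (R 4.3.3; limma 3.58.1, functions lmFit and eBayes, variance trend on intensity), two-sided, with Benjamini-Hochberg adjustment at 0.05; the fit was tested on simulated data. Symbols came from the platform's probe gene table, and all 72 member symbols were found in the gene reference.

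The members, lists and tests were chosen with earlier results of these data known. Named probe sets are, per comparison and role group, the 3 largest rises and 3 largest falls past the test, genes with calls in both directions, a preset list of core factors, and the 2 largest rises and falls among other splicing genes, where a gene is read by its brightest probe set. Other members were named after their values were seen. Alternatives were other normalizations, pseudocounts, filters, variance models, array weights, a replicate block, 1 probe set per gene and left-out arrays.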

Additional observations from a re-analysis of the deposited data

Results flagged for a closer look

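In 13 of the 126 combinations of a named probe set and a group, 1 array lay far from the others of its group by Dixon's criterion, which chance meets in about 1 of 20 groups. Sieved replicate 3 was the outlying array in 4 of them. It had the lowest Hnrnpa2b1 signal (1373540_at, 890 against 1820 to 1953) and the lowest Srsf5 signal (2739 against 3572 to 3722). It had the highest Hnrnpa3 signals (1370872_at, 1478 against 804 to 854, and 1388119_at, 3385 against 2115 to 2151).

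In LCM 800, replicate 1 had the lowest Prpf4b signal (231 against 639 to 741) and the highest Sf3b5 signal (495 against 162 to 212). Replicate 4 had the lowest Hnrnpu signal on 1370170_at (1626 against 2475 to 2821). Replicate 5 had the lowest Prpf38b signal (596 against 776 to 846) and the lowest Sf3b4 signal (1242 against 1913 to 2195).

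In LCM 20, replicate 4 had the lowest Prpf39 signal (183 against 330 to 352), the lowest Sf3b5 signal (160 against 221 to 232) and the highest Snrpd2 signal (170 against 46 to 57). Replicate 3 had the lowest Tra2a signal (383 against 611 to 667).

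The change of Tra2a against the sieved group differed between LCM 20 and LCM 800 by 1.74 on the log2 scale, as tested by limma's contrast of these groups (adjusted p = 0.0289).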

How the results depend on the processing

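No call reversed under any alternative run. Of the named probe sets, 27 of 35 calls in LCM 800 and 25 of 32 in LCM 20 against the sieved group held in every alternative, while the single call between the LCM groups did not. Array weights gave 17 members higher in LCM 800 (26.6%, beside 40.1% of all probe sets). They gave 35 other splicing genes (36.1%) higher in LCM 800 and 40 (41.2%) higher in LCM 20. Between the LCM groups they gave 10 members higher and 2 lower and 7 other genes higher and 3 lower. Counts printed in this paragraph without a share are not set against all probe sets. With the lowest 60% left out, which tests fewer probe sets, 15 other splicing genes were lower in either comparison against the sieved group. Leaving out 1 array at a time gave 7 to 13 members and 14 to 28 other genes higher in LCM 20. The member higher in LCM 20 than in LCM 800 was Tra2a. With the lowest 60% left out it was not among the probe sets tested (0 called). Its call ended (0 called) with no filter, no pseudocount or only the 2 groups compared, at differences of 1.74, 2.33 and 1.74 against 1.74 as reported, and without LCM 800 replicates 1 to 3, at 1.14. Without LCM 800 replicates 4 and 5 there were 16 members higher and 5 lower, and 19 other genes higher and 8 lower. Leaving out single arrays gave 0 to 8 members higher and 0 to 2 lower, and 0 to 6 other genes higher and 0 to 2 lower, most without LCM 800 replicate 4; the causes were not tested.

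Whether arrays with the same replicate number share a rat is not given. The deviations of same-numbered arrays from their group means correlated at -0.244 to 0.233. With 4 or 5 arrays per group these values cannot decide it. With the replicate block, 11 members (17.2%) were higher and 21 (32.8%) lower in LCM 800, beside 29.75% and 19.3% of all probe sets. In LCM 20, 11 (17.2%) were higher and 19 (29.7%) lower, beside 24.8% and 19.1%. Between the LCM groups 0 passed either way, a count not set against all probe sets. Tra2a between the LCM groups, Snrpe in LCM 800 and Prpf38a in LCM 20 were no longer called. Calls in limma were gained by Hnrnpa2b1 (1398883_at) in LCM 800 (-0.91, adjusted p = 0.0261) and Sf3b1 (1390234_at) in LCM 20 (-0.88, adjusted p = 0.017). Arrays per group, 4 or 5, limit the precision, and probe sets whose signals lie under the pseudocount have understated changes.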

Other observations

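The following splicing genes outside the name rule were singled out after their values were seen. The 4 Clk kinases, which phosphorylate SR proteins, all fell in both comparisons against the sieved group, with Clk2 at -1.49 and -1.25, Clk3 at -0.93 and -0.90 and Clk4 at -1.38 and -1.53 in LCM 800 and LCM 20. The RNA helicase Ddx39b, which works in splicing and mRNA export, had changes of -1.97 and -2.01, and the export adaptor Alyref of -1.15 and -1.75. Partners of a complex could differ in direction. The cap-binding subunit Ncbp1 changed by -1.61 ± 0.22 (SE, adjusted p = 2.52e-05) and -1.54 ± 0.23 (SE, adjusted p = 7.92e-05), and its partner Ncbp2 by 0.88 ± 0.25 (SE, adjusted p = 0.00777) and 0.94 ± 0.26 (SE, adjusted p = 0.0088). The polypyrimidine tract protein Ptbp1 changed by -1.10 ± 0.24 (SE, adjusted p = 0.00126) and -1.30 ± 0.25 (SE, adjusted p = 0.000622), and its relative Ptbp3 by 1.23 ± 0.32 (SE, adjusted p = 0.00444) and 1.01 ± 0.34 (SE, adjusted p = 0.0224). Of the Lsm ring, Lsm4 rose by 1.72 and 1.78, Lsm3 rose by 0.95 and 0.72, and Lsm2 had changes of -0.66 and -0.67. All of the genes named so far passed limma's test in both comparisons, which share the sieved arrays. Lsm7 had changes of -0.23 ± 0.29 (SE, adjusted p = 0.529) in LCM 800 and -0.93 ± 0.30 (SE, adjusted p = 0.0208) in LCM 20, and Lsm5 and Lsm10 passed in neither. Ptbp2, a relative of Ptbp1, had 0.43 ± 0.25 (SE, adjusted p = 0.153) and 0.69 ± 0.26 (SE, adjusted p = 0.0386).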
